A study of Saccharomyces cerevisiae with 15 samples.

Results

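The 10 genes SSA1, SSA2, SSA4, HSP82, HSC82, HSP104, SSE1, SIS1, YDJ1 and HSP78 encode Hsp70, Hsp90 and Hsp100 family chaperones of budding yeast and the partners of Hsp70. They were chosen by name, as 10 of the 7126 genes in the table, and all 10 were among the 6474 genes that passed the filter on low values. Polyadenylated RNA was measured in 15 libraries of Saccharomyces cerevisiae, 3 for each of 5 strains grown in YPD at 30 °C without treatment. The comparisons asked how loss of ULP2 (which encodes a SUMO protease), of SLX5 (which encodes part of a ubiquitin ligase that recognises SUMO chains), of both, or of SET1 (the histone methyltransferase of COMPASS) changed the transcripts. The measure is FPKM, the fragments assigned to a gene scaled to its length and to the fragments of the library. The labels do not say whether replicates came from separate cultures, so the p-values measure the spread between these libraries, which may be technical. In RNA from whole cultures, a change in all cells and a change in a share of them cannot be told apart.

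The double mutant ulp2 slx5 (strain MHY9109) is given as MATalpha with kanMX replacing both genes. The ulp2 strain (MHY5033) and the slx5 strain (MHY7919) are each MATalpha with the named gene replaced by kanMX, and the set1 strain (MHY8915) is MATalpha with HIS3 in place of SET1. These 4 strains carry deletions at his3, leu2, met15, ura3 and lys2. WT (MHY2972) is given as MATa, with deletions at his3, leu2, ura3 and lys2 and none listed at met15.

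ULP2, SLX5 and SET1 each averaged at most 0.104 FPKM in the strains labelled as lacking the gene and at least 25.1 FPKM in the others. Other markers went against the labels. Alpha factor (MF(ALPHA)1) averaged 8.78 FPKM in ulp2 slx5, labelled MATalpha, and 5.73 FPKM in WT, but 3967, 4426 and 3524 FPKM in ulp2, slx5 and set1. The a1 gene of MATa cells, counted under HMRA1, averaged 210.5 FPKM in ulp2 slx5, 0.160 in ulp2 and 234 in WT, and was listed at 0 in slx5 and set1. LYS2 averaged 37.0 FPKM in ulp2 slx5, 46.2 in ulp2 and 43.4 in slx5, against 0.0694 in set1 and 0.0398 in WT, although every label deletes it. MET17, the gene named met15 in the labels, averaged 228 FPKM in ulp2 slx5, 310.2 in ulp2, 300.3 in set1 and 137 in WT, against 0.726 in slx5. HIS3 averaged 108 FPKM in ulp2 slx5, 122 in ulp2, 128 in slx5, 150.4 in set1, where it is also the deletion marker, and 94.9 in WT, although every label lists a his3 deletion. Mating-type expression therefore separated each single mutant from WT and from ulp2 slx5, and its part cannot be told apart from that of the deletions. LYS2 transcripts separated ulp2 slx5, ulp2 and slx5 from set1 and WT, and the near absence of MET17 transcripts separated slx5 from the other strains. Across those divides the same limit holds for every gene. The columns summed to 1213826 to 1761583 FPKM, and the depth of the libraries is unknown.

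Hsp70 proteins bind and release unfolded stretches of other proteins while they hydrolyse ATP, J-proteins deliver substrates and start that hydrolysis, and nucleotide exchange factors end the cycle. Hsp90 finishes the folding of kinases, receptors and other clients, and Hsp104 pulls proteins out of aggregates together with Hsp70. In yeast, heat shock factor Hsf1 and the general stress factors Msn2 and Msn4 drive many of these genes through heat shock elements and stress response elements in their promoters.

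The promoters of 7 of the genes are shown: SSA1, SSA4, HSP82, HSP104 and HSP78, the constitutive Hsp70 gene SSA2, and SIS1, the gene that fell. Each runs from 250 to 101 bases before the start codon, 5′ to 3′ on the strand of the gene, from the RefSeq assembly of build R64. Capitals mark a heat shock element searched as TTCNNGAANNTTC or its reverse complement GAANNTTCNNGAA, or a stress response element searched as AGGGG or CCCCT.
SSA1 promoter, chrI:141532-141681, minus strand: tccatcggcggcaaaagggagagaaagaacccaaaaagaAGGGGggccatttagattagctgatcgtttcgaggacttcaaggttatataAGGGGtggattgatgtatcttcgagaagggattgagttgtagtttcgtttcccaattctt
SSA4 promoter, chrV:364339-364488, plus strand: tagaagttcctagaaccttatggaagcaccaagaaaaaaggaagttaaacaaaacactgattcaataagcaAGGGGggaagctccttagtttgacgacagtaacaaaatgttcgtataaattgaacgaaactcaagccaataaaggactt
HSP82 promoter, chrXVI:98726-98875, minus strand: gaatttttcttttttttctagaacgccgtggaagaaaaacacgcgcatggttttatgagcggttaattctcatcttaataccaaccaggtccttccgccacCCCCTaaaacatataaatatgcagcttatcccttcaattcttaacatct
HSP104 promoter, chrXII:88373-88522, plus strand: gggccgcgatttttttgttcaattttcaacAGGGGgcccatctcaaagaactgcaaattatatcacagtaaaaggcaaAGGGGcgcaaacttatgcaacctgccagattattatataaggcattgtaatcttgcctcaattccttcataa
HSP78 promoter, chrIV:974344-974493, minus strand: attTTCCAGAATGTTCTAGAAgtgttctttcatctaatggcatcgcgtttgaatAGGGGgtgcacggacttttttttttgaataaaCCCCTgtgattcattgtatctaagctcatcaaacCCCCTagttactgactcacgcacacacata
SSA2 promoter, chrXII:97586-97735, minus strand: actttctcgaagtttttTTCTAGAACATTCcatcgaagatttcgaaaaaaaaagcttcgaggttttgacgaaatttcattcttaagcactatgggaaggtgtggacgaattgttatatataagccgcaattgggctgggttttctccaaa
SIS1 promoter, chrXIV:619666-619815, minus strand: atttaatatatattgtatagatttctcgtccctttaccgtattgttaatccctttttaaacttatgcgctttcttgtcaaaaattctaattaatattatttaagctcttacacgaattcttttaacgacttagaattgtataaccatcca

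Of 6001 promoters of this length, 37 held the heat shock element as spelled here (0.617%) and 750 held a stress response element (12.5%). Among the 10 chaperone genes, 3 held this spelling of the heat shock element. SSA2 and SSE1 had 1 match each, and HSP78 had a pair of matches that overlap each other, which appear as 1 stretch of capitals. A stress response element was present in 5 of the 10, with 2 matches in SSA1, 1 in SSA4, 1 in HSP82, 2 in HSP104 and 3 in HSP78. HSC82, SIS1 and YDJ1 had no match to either spelling in this window. Elements of another spelling or outside the window were not searched for, so a gene without a match may still hold one. At least 2 stress response elements were found in 1.35% of all promoters.

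Against WT, SSA1, SSA4, HSP82, HSP104 and HSP78 were higher in ulp2 slx5, in ulp2 and in slx5, and all of them but SSA4 in set1. HSC82, SSE1 and YDJ1 moved by at most 0.43 on the log2 scale in any of the 4 mutants. SIS1 was lower in all 4. In ulp2 slx5, limma called 8 of the 10 genes higher and 1 lower at a Benjamini-Hochberg adjusted p under 0.05, in a comparison where 62.3% of all tested genes were called, 32.9% higher and 29.4% lower. In ulp2 it called 6 higher and 1 lower, where 54.5% of all genes were called, 27.8% higher and 26.7% lower. In slx5 it called 7 higher and 1 lower, where 50.7% were called, 25.6% higher and 25.1% lower. In set1 it called 4 higher and 1 lower, where 37.3% were called, 22.1% higher and 15.2% lower. These 4 comparisons share the WT libraries. The median log2 fold change of the 10 genes was 1.05 in ulp2 slx5, 0.59 in ulp2, 1.01 in slx5 and 0.06 in set1. Over all tested genes the medians were 0.03, −0.02, −0.0022 and 0.01 in the same comparisons. Scaling the libraries to equal totals moved the all-gene median to 0.28 in ulp2 slx5, 0.09 in ulp2 and 0.10 in slx5, with 9, 6 and 9 of the 10 called higher. Under that scaling 2774 of 3349 called genes were higher in ulp2 slx5, 1781 of 2382 in ulp2 and 1657 of 2320 in slx5, whereas as deposited these were 2129 of 4031, 1799 of 3526 and 1659 of 3285. Quantile normalization moved them the other way, to 1601 of 4010 in ulp2 slx5 and 1436 of 3661 in ulp2, and to 1150 of 2367 in set1, where 1430 of 2413 were higher as deposited. With 37.3 to 62.3% of all genes called, the counts among the 10 are read beside those shares. Fold changes are differences of mean log2(FPKM + 1), which slightly understates the change of genes at low levels.

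**Figure D1:**
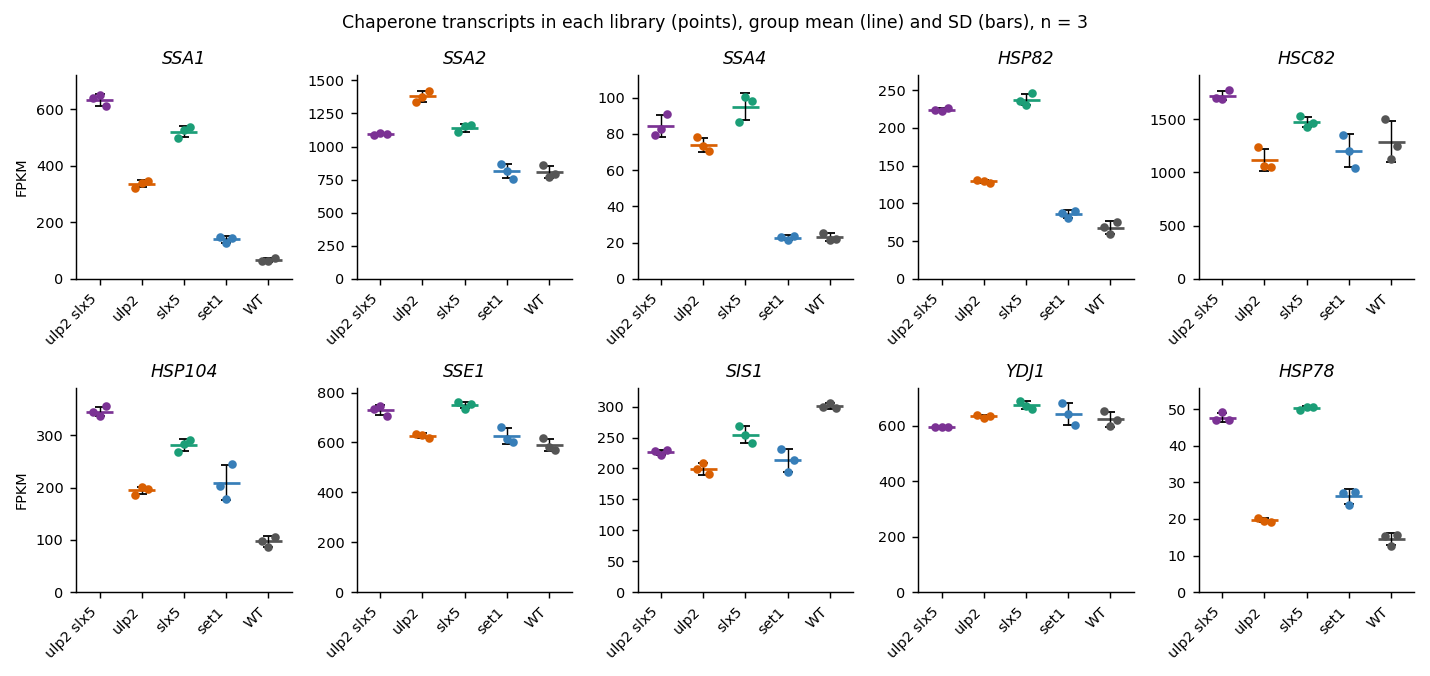
FPKM of each chaperone gene (vertical axes, linear from 0) in the 3 libraries of ulp2 slx5, ulp2, slx5, set1 and WT; points are libraries, the horizontal line is the group mean and the bar its SD. SSA1 runs from 63.0 FPKM in a WT library to 650 FPKM in a ulp2 slx5 library, SSA2 peaks in ulp2, and SIS1 is lower in each mutant library than in each WT library.

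SSA1 (YAL005C, chromosome I, 139503 to 141431, minus strand, 1 coding exon) encodes a cytosolic Hsp70 made in growing cells and induced by heat. It had 639, 650 and 611 FPKM in ulp2 slx5, 323, 339 and 347 FPKM in ulp2, 499, 527 and 536.5 FPKM in slx5, 149, 126 and 145 FPKM in set1, and 63.0, 64.6 and 73.8 FPKM in WT. The 5 groups did not overlap and each adjacent pair of groups in this order of levels, ulp2 slx5, slx5, ulp2, set1 and WT, differed by limma. The log2 fold change against WT was 3.22 in ulp2 slx5 (adjusted p = 2.20e-12), 2.31 in ulp2 (5.29e-11), 2.94 in slx5 (2.85e-12) and 1.05 in set1 (2.43e-07), each with a standard error of 0.0713. No other of the 10 genes changed as much in ulp2 slx5, ulp2 or slx5.

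SSA2 (YLL024C, chromosome XII, 95566 to 97485, minus strand, 1 coding exon) encodes the abundant constitutive Hsp70 of the cytosol. It had 1088, 1101 and 1093 FPKM in ulp2 slx5, 1338, 1378 and 1423 FPKM in ulp2, 1106, 1158 and 1159 FPKM in slx5, 866, 818.5 and 756 FPKM in set1, and 860, 768 and 795 FPKM in WT. Every ulp2 library was above every library of the other groups, and the set1 and WT libraries overlapped. Its log2 fold change relative to WT was 0.44 in ulp2 slx5 (limma, adjusted p = 2.51e-05), 0.77 in ulp2 (1.99e-07), 0.50 in slx5 (1.19e-05) and 0.01 in set1 (0.919). SSA2 was the only one of the 10 genes that was higher in ulp2 than in slx5, by 0.27 (adjusted p = 0.00172), and 8 of the others were lower, where 45.7% of all genes were called, 22.7% higher and 23% lower. Relative to the 30 tested genes nearest to it on chromosome XII, SSA2 was lower in ulp2 than in slx5, by 0.48 (0.000158). Levels in ulp2 slx5 and slx5 did not differ by limma (adjusted p = 0.466), with a 95% interval of −0.19 to 0.06 for the log2 difference.

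SSA4 (YER103W, chromosome V, 364589 to 366517, plus strand, 1 coding exon) encodes a cytosolic Hsp70 that is scarce in unstressed cells and strongly induced by heat. It had 79.2, 82.9 and 90.9 FPKM in ulp2 slx5, 78.1, 73.1 and 70.8 FPKM in ulp2, 86.5, 100.4 and 98.0 FPKM in slx5, 23.1, 21.5 and 23.8 FPKM in set1, and 25.4, 21.7 and 22.1 FPKM in WT. The libraries fell into a high set of 3 strains and a low set of set1 and WT, with no overlap between the sets. Against WT its log2 fold change was 1.83 in ulp2 slx5 (limma, adjusted p = 7.70e-10), 1.64 in ulp2 (3.25e-09) and 2.0 in slx5 (3.63e-10). In set1 it was −0.01 (adjusted p = 0.917; 95% interval −0.18 to 0.16). The high set is also the set of strains with LYS2 transcripts, so the LYS2 difference cannot be told apart from the named deletions for SSA4, as for the other genes. Within the high set, slx5 and ulp2 slx5 did not differ (adjusted p = 0.124), while ulp2 was below slx5 by 0.35 (0.00241). The ulp2 slx5 libraries lay above those of ulp2 without overlap, by 0.18 (0.0637), a difference that was called in 3 fits that left out a library (adjusted p between 0.0424 and 0.0490). It was also called relative to the 30 nearest genes (0.30, 0.0175).

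SSA1 and SSA2 are nearly the same gene. Their coding sequences were identical at 96.8% of aligned bases, and the longest run without a difference was 383 bases, at coding positions 403 to 785 of SSA1. Of all 50-base windows of SSA1, 57.9% occurred unchanged in SSA2, so the split of reads between these genes rests on the assignment made by the authors and each gene alone is uncertain. Their summed level does not depend on that split, provided that each shared read was counted once, which was not tested. SSA1 and SSA2 together had 1727 ± 23.1 FPKM in ulp2 slx5, 1716 ± 54.3 in ulp2, 1662 ± 49.6 in slx5, 954 ± 57.7 in set1 and 875 ± 45.6 in WT (SD, n = 3 each). The sum was higher than in WT by 0.98 in ulp2 slx5 (limma, adjusted p = 1.06e-08), 0.97 in ulp2 (1.84e-08) and 0.93 in slx5 (2.60e-08), and by 0.12 in set1 (0.101) on the log2 scale. Between ulp2 slx5 and ulp2 the sum differed by 0.0096 (adjusted p = 0.900; 95% interval −0.11 to 0.13), although SSA1 alone was higher by 0.91 and SSA2 alone lower by 0.33. With quantile normalization the sum was called higher in ulp2 slx5 (0.20, 0.0125). No 50-base window was shared between SSA1 and SSA4 or between SSA2 and SSA4.

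HSP82 (YPL240C, chromosome XVI, 96496 to 98625, minus strand, 1 coding exon) encodes the heat-inducible Hsp90. It had 224, 222 and 226.5 FPKM in ulp2 slx5, 131.5, 129.5 and 127 FPKM in ulp2, 236, 231 and 246 FPKM in slx5, 87.4, 80.0 and 90.2 FPKM in set1, and 68.4, 59.4 and 75.8 FPKM in WT. All 5 groups were free of overlap. The log2 fold change against WT was 1.72 in ulp2 slx5 (limma, adjusted p = 7.06e-10), 0.93 in ulp2 (3.14e-07), 1.80 in slx5 (4.98e-10) and 0.34 in set1 (0.00268). The set1 call was lost when libraries were scaled to equal totals (0.29, adjusted p = 0.0519) and when only set1 and WT entered the fit (0.34, 0.0605). Levels in ulp2 slx5 and slx5 did not differ by limma (adjusted p = 0.427; 95% interval −0.24 to 0.08).

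HSC82 (YMR186W, chromosome XIII, 632355 to 634472, plus strand, 1 coding exon) encodes the constitutive Hsp90 and was the most abundant of the 10 transcripts in ulp2 slx5, slx5, set1 and WT. It had 1699, 1694 and 1774 FPKM in ulp2 slx5, 1241, 1057 and 1053 FPKM in ulp2, 1526.5, 1432 and 1466 FPKM in slx5, 1356, 1204.5 and 1047 FPKM in set1, and 1498, 1125 and 1247 FPKM in WT. The ulp2 slx5 libraries stood above all others, and the slx5, ulp2 and set1 libraries each overlapped the WT libraries. Set against WT, its log2 fold change was 0.43 in ulp2 slx5 (limma, adjusted p = 0.00429), −0.20 in ulp2 (0.137), 0.20 in slx5 (0.143) and −0.10 in set1 (0.520). The slx5 difference was called under equal totals (0.31, adjusted p = 0.000484), under quantile normalization (0.31, 0.00190) and without WT replicate 0 (0.32, 0.0232). Without WT replicate 1 the ulp2 difference was called (−0.30, 0.0396). No pair of neighbours in the order ulp2 slx5, slx5, WT, set1 and ulp2 differed by limma.

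HSP82 and HSC82 were identical at 92.4% of aligned coding bases, but only 6.39% of the 50-base windows of HSP82 occurred in HSC82, and the longest identical run was 113 bases. Together they had 1946 ± 46.9 FPKM in ulp2 slx5, 1246 ± 109 in ulp2, 1712 ± 50.2 in slx5, 1288 ± 153 in set1 and 1358 ± 194 in WT. The sum was higher in ulp2 slx5 by 0.53 (limma, adjusted p = 0.000677) and in slx5 by 0.34 (0.0143), a call that leaving out WT replicate 1 ended (0.25, 0.0623). In ulp2 the sum differed by −0.12 (0.362) and in set1 by −0.07 (0.627). HSC82 made up most of the Hsp90 transcript in every strain.

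**Figure D2:**
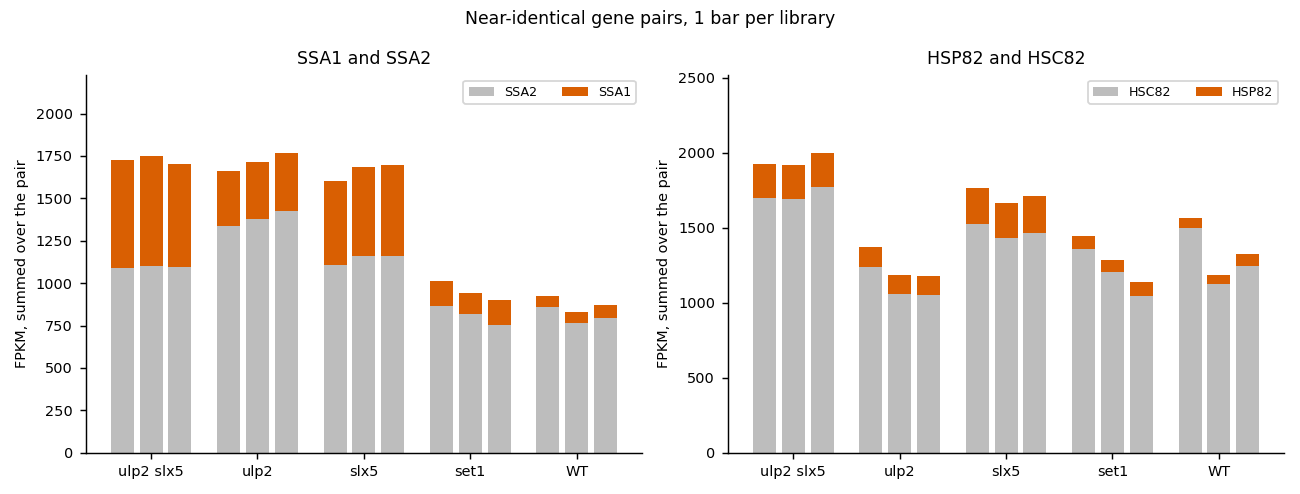
FPKM of SSA1 stacked on SSA2 (left) and of HSP82 stacked on HSC82 (right), linear axes from 0, 1 bar per library in the order of replicates, for ulp2 slx5, ulp2, slx5, set1 and WT. The SSA1 and SSA2 sums are alike in the first 3 strains (group means 1727, 1716 and 1662 FPKM) with a smaller SSA1 portion in ulp2, and the Hsp90 sum is highest in ulp2 slx5.

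HSP104 (YLL026W, chromosome XII, 88623 to 91349, plus strand, 1 coding exon) encodes the cytosolic disaggregase. It had 345, 337 and 355.5 FPKM in ulp2 slx5, 186.5, 201 and 197 FPKM in ulp2, 268, 284 and 291 FPKM in slx5, 204, 179 and 246 FPKM in set1, and 98.7, 86.5 and 106 FPKM in WT. Every mutant library was above every WT library, and the ulp2 and set1 libraries overlapped. The log2 fold change against WT was 1.83 in ulp2 slx5 (limma, adjusted p = 6.13e-09), 1.0 in ulp2 (2.41e-06), 1.53 in slx5 (4.88e-08) and 1.09 in set1 (3.15e-06). In set1 this was, with SSA1, 1 of 2 genes among the 10 that rose by more than 1 on this scale. Levels in ulp2 and set1 did not differ by limma (−0.09, adjusted p = 0.451; 95% interval −0.31 to 0.12).

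HSP78 (YDR258C, chromosome IV, 971808 to 974243, minus strand, 1 coding exon) encodes the mitochondrial relative of Hsp104, with 63.5% identity of aligned coding bases. It had 46.9, 49.2 and 47.1 FPKM in ulp2 slx5, 20.2, 19.5 and 19.2 FPKM in ulp2, 49.9, 50.5 and 50.7 FPKM in slx5, 27.1, 23.9 and 27.4 FPKM in set1, and 15.3, 12.7 and 15.5 FPKM in WT. No groups overlapped, and set1 stood above ulp2. Relative to WT, its log2 fold change was 1.66 in ulp2 slx5 (limma, adjusted p = 9.46e-10), 0.42 in ulp2 (0.000338), 1.73 in slx5 (7.08e-10) and 0.81 in set1 (3.03e-06). HSP78 showed the widest gap of the 10 genes between ulp2 and slx5, −1.32 (adjusted p = 1.99e-08). It stood lower in ulp2 than in set1 as well, by 0.39 (0.000630), the only one of the 10 that limma called lower in that comparison (4 were called higher; of all genes 48.7% were called, 22.8% higher and 26% lower).

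SSE1 (YPL106C, chromosome XVI, 350194 to 352275, minus strand, 1 coding exon) encodes an Hsp110, a relative of Hsp70 that acts as its nucleotide exchange factor. It averaged 729 ± 19.6 FPKM in ulp2 slx5, 627.5 ± 8.62 in ulp2, 750 ± 12.9 in slx5, 627 ± 31.8 in set1 and 589 ± 24.4 in WT. The log2 fold change against WT was 0.31 in ulp2 slx5 (limma, adjusted p = 9.39e-05) and 0.35 in slx5 (5.02e-05), against 0.09 in ulp2 (0.120) and 0.09 in set1 (0.164). The libraries of ulp2 slx5, ulp2 and slx5 lay above those of WT without overlap, whereas those of set1 overlapped them.

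SIS1 (YNL007C, chromosome XIV, 618507 to 619565, minus strand, 1 coding exon) encodes an essential J-protein that partners the cytosolic Hsp70s and works with Hsp104 on aggregates. It had 228, 221 and 229 FPKM in ulp2 slx5, 199, 209 and 190 FPKM in ulp2, 268, 254 and 242 FPKM in slx5, 231, 195 and 213 FPKM in set1, and 299, 306 and 297 FPKM in WT. Every mutant library was below every WT library. Against WT, the log2 fold change was −0.41 in ulp2 slx5 (limma, adjusted p = 6.97e-05), −0.59 in ulp2 (3.57e-06), −0.24 in slx5 (0.00523) and −0.50 in set1 (3.96e-05). With libraries scaled to equal totals, the fall was not called in ulp2 slx5 (−0.15, adjusted p = 0.215) or slx5 (−0.13, 0.322). With all libraries as deposited, SIS1 was the only one of the 10 genes called lower than WT in any of the 4 comparisons. Under other scalings YDJ1 was called lower in ulp2 slx5 and HSC82 in ulp2 (−0.18 with quantile normalization, adjusted p = 0.0392).

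YDJ1 (YNL064C, chromosome XIV, 505868 to 507097, minus strand, 1 coding exon) encodes the other major J-protein of the cytosol. It averaged 596 ± 0.71 FPKM in ulp2 slx5, 634 ± 4.85 in ulp2, 674 ± 14.5 in slx5, 641 ± 39.6 in set1 and 623 ± 27.9 in WT. Its log2 fold change against WT was −0.06 in ulp2 slx5 (limma, adjusted p = 0.288), 0.03 in ulp2 (0.676), 0.11 in slx5 (0.0700) and 0.04 in set1 (0.566), and the 95% intervals of the 4 differences lay between −0.17 and 0.22. Scaling decided the sign in ulp2 slx5, where YDJ1 was called higher under equal totals (0.20, adjusted p = 0.0323) and lower under equal medians (−0.14, 0.0283). The slx5 difference was called under equal totals (0.22, adjusted p = 0.0265), under quantile normalization (0.13, 0.00794) and relative to neighbours (0.23, 0.00908). It was also called in 3 of the fits that left out a library, among them without WT replicate 0 (0.15, 0.0306). SIS1 and YDJ1 shared no 50-base window.

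**Figure D3:**
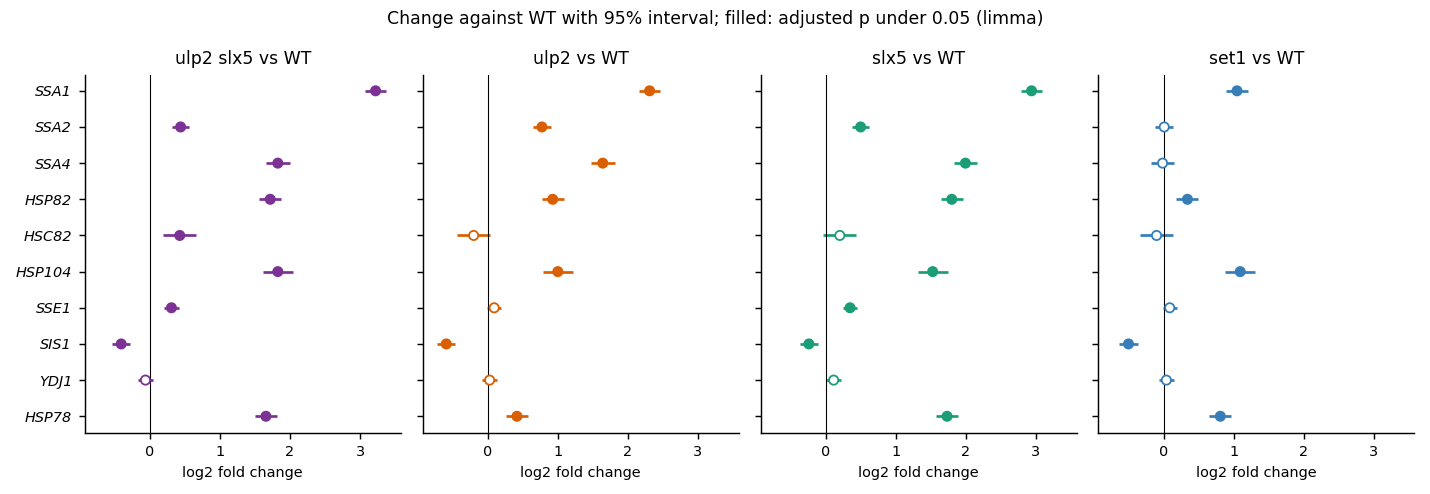
Log2 fold change of each chaperone gene against WT (horizontal axes) in ulp2 slx5, ulp2, slx5 and set1; bars are 95% intervals and filled points passed an adjusted p of 0.05 in limma. SSA1 is farthest to the right in ulp2 slx5 (3.22), ulp2 (2.31) and slx5 (2.94), and SIS1 is left of 0 in all 4 panels. In set1 SSA1, HSP104 and HSP78 lie farthest from 0, followed by SIS1 and HSP82.

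Added over the 10 genes, the FPKM came to 5678, 5699 and 5731 in ulp2 slx5, 4791, 4662 and 4681 in ulp2, 5491, 5443 and 5504 in slx5, 4288, 3902 and 3753 in set1, and 4197, 3623 and 3821 in WT. The set1 and WT libraries overlapped, and the other strains stood above both. As a share of the library without the ribosomal protein genes RPL41A and RPL41B, which took 3.09 to 21.7% of the FPKM, the 10 genes held 0.480 to 0.495% in ulp2 slx5, 0.361 to 0.386% in ulp2, 0.458 to 0.465% in slx5, 0.288 to 0.311% in set1 and 0.288 to 0.298% in WT.

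SSA1 lies on chromosome I, and SSA2 and HSP104 lie close together on chromosome XII. In the ulp2 libraries the genes of these 2 chromosomes stood higher as a whole. Their median log2 fold change against WT was 0.89 on chromosome I (91 genes) and 0.78 on chromosome XII (494 genes). SSA1, SSA2 and HSP104 count among these genes but were left out of the medians. To set each chaperone gene against the genes around it, the median deviation of its 30 nearest tested genes was subtracted in each library. After that step limma called 6 of the 10 higher and 2 lower in ulp2 against WT, where 48% of all genes with a position were called. In ulp2 slx5 it called 8 higher and 2 lower (59.6% of all genes), in slx5 8 and 1 (51.6%), and in set1 4 and 1 (40.9%). No chromosome copy number was measured here.

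SSA1 stood well above its neighbours in ulp2. Its 30 neighbours had a median log2 fold change of 0.90 and SSA1 exceeded them by 1.41 (limma, adjusted p = 1.87e-10). It had the third highest change of the 91 genes of the chromosome, and the first in slx5. Sequence shared by SSA1 and SSA2 leaves each of them alone uncertain, here and in the comparisons below. The sum of both rose by 0.97 in ulp2 against WT. SSA2 moved with its neighbours, whose median was 0.78, and differed from them by −0.01 (adjusted p = 0.942; 95% interval −0.16 to 0.15), at rank 251 of 494 on chromosome XII. HSP104 exceeded its neighbours, at a median of 0.79, by 0.21 (adjusted p = 0.102; 95% interval −0.0075 to 0.43) and had rank 122 of 494. That difference was called without set1 replicate 2 (0.23, adjusted p = 0.0351) and without WT replicate 2 (0.29, 0.0425). Of the rise of HSP104 by 1.0 in ulp2, the part beyond its neighbours was therefore not called with all libraries.

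In ulp2 slx5 the neighbours of these 3 genes were near WT levels, with medians of 0.23 around SSA1, 0.09 around SSA2 and 0.06 around HSP104. Relative to them SSA1 was higher by 2.99 (limma, adjusted p = 6.05e-14), SSA2 by 0.35 (0.000907) and HSP104 by 1.77 (3.75e-09). In slx5 the neighbour medians were 0.02, 0.03 and 0.01, and the 3 genes exceeded them by 2.91, 0.47 and 1.51. In set1 SSA1 exceeded its neighbours by 0.92 (3.03e-08) and HSP104 by 1.01 (4.21e-06), while SSA2 differed by −0.09 (0.331).

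HSC82 on chromosome XIII had neighbours higher in ulp2 slx5, with medians of 0.75 (nearest 30) and 0.48 (whole chromosome of 458 genes, without HSC82). Its own rise of 0.43 against WT was below that of its neighbours by 0.33 (limma, adjusted p = 0.0325), and it had rank 239 of 458. Against the whole chromosome the difference was −0.03 (adjusted p = 0.799). Against the 30 neighbours the call was lost in 6 of the 15 fits that left out a library, with −0.18 (0.176) without WT replicate 0. In ulp2 HSC82 was below its neighbours by 0.48 (0.00521), a call that was lost against the whole chromosome (−0.27, 0.0535). The medians around SSA4, HSP82, SSE1, SIS1, YDJ1 and HSP78 lay between −0.27 and 0.12 in all 4 mutants against WT, and SSA4, HSP82 and HSP78 kept their calls relative to their neighbours in ulp2 slx5, ulp2 and slx5.

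**Figure D4:**
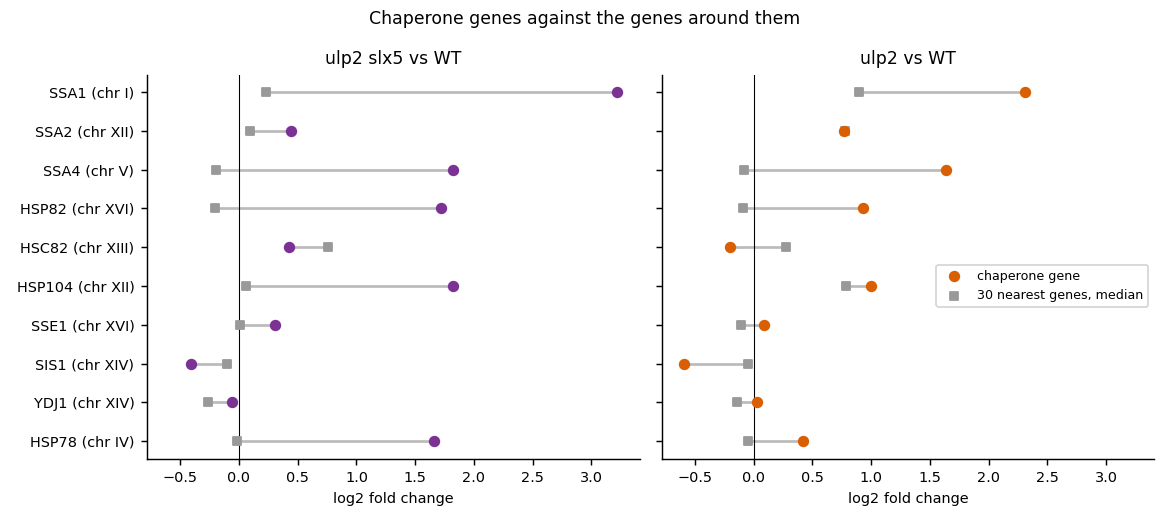
Log2 fold change against WT (horizontal axes) of each chaperone gene (circles) and the median of its 30 nearest tested genes (squares), in ulp2 slx5 (left) and ulp2 (right), joined by a line. In ulp2 the circle of SSA2 lies on its square (0.77 and 0.78), that of HSP104 lies near it (1.0 and 0.79) and that of SSA1 lies far to its right (2.31 and 0.90).

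The double mutant was also set against each single mutant. Against ulp2, 7 of the 10 genes were higher and SSA2 was lower by limma, where 52.6% of all genes were called, 26.4% higher and 26.2% lower. HSP78 rose by 1.24 (adjusted p = 2.15e-08), SSA1 by 0.91 (2.62e-07), HSP104 by 0.83 (1.24e-05), HSP82 by 0.79 (1.16e-06) and HSC82 by 0.63 (0.000335). SSE1 rose by 0.22 (0.00184) and SIS1 by 0.18 (0.0224). The SIS1 call was lost without ulp2 slx5 replicate 0 (adjusted p = 0.0604), ulp2 slx5 replicate 2 (0.0633) or ulp2 replicate 2 (0.0885). SSA2 fell by 0.33 (0.000309), but its neighbours fell by 0.69, and relative to them it was higher by 0.36 (0.00126). SSA1 and HSP104 exceeded their neighbours by 1.58 and 1.56 in the same comparison (adjusted p = 9.72e-11 and 4.20e-08).

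Against slx5, ulp2 slx5 differed little. SSA1 was higher by 0.28 (limma, adjusted p = 0.00921) and HSP104 by 0.30 (0.0358), SIS1 was lower by 0.17 (0.0497) and YDJ1 by 0.18 (0.0154), where 30.7% of all genes were called, 17.3% higher and 13.4% lower. The other 6 were not called, and none of the 10 was called relative to its neighbours, where 16.5% of all genes with a position were. The number of calls fell to 1 when slx5 replicate 0 was left out and to 2 when slx5 replicate 1 or any ulp2 slx5 library was left out. Adjusted p for HSP104 without each of these 5 libraries lay between 0.0642 and 0.114. The SIS1 call was lost in 12 of the 15 fits that left out a library, with adjusted p up to 0.179.

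The interaction asks whether loss of ULP2 changes a gene as much in an slx5 background as in an SLX5 background: it is the difference ulp2 slx5 minus slx5, less the difference ulp2 minus WT. It was negative and called by limma for SSA1 (−2.03, adjusted p = 8.80e-09), SSA4 (−1.81, 6.76e-08), HSP82 (−1.01, 6.48e-06), SSA2 (−0.83, 4.48e-06), HSP104 (−0.70, 0.00126), HSP78 (−0.49, 0.00176) and YDJ1 (−0.20, 0.0320). It was positive for SIS1 (0.42, 0.00151) and HSC82 (0.43, 0.0419), and not called for SSE1 (−0.13, 0.137), where 41.8% of all genes were called, 20% higher and 21.8% lower. For SSA1 the added loss of ULP2 went with 0.28 more in an slx5 background and with 2.31 more in an SLX5 background. Relative to neighbours, 5 of the 9 calls held, where 31.8% of all genes with a position were called, and those for SSA2 (−0.11, adjusted p = 0.434), HSP104 (0.04, 0.858), HSC82 (0.13, 0.605) and YDJ1 (−0.19, 0.130) were lost. The calls for HSC82 and YDJ1 were lost in most fits that left out a library, with HSC82 at 0.31 without WT replicate 0 (adjusted p = 0.0886) and YDJ1 at −0.17 without WT replicate 1 (0.0621). For the SSA1 and SSA2 sum the interaction was −0.92 (adjusted p = 1.63e-06), and for the HSP82 and HSC82 sum it was 0.30 (0.120; called under equal totals at 0.34, adjusted p = 0.00357). Mating-type expression follows the same contrast, since WT and ulp2 slx5 showed MATa expression and both single mutants MATalpha expression. LYS2 transcripts also enter it, since they were near absent in WT and present in ulp2 slx5, ulp2 and slx5. So do MET17 transcripts, which were near absent only in slx5. The parts of these differences cannot be told apart from that of the deletions.

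Between mutants, slx5 exceeded set1 for 9 of the 10 genes and was below it for none, where 43.2% of all genes were called, 20.5% higher and 22.7% lower. The largest of these differences were 2.01 for SSA4 (limma, adjusted p = 1.22e-09) and 1.89 for SSA1 (8.90e-10), and YDJ1 was the gene not called (0.07, 0.252). The HSC82 call (0.30, 0.0407) was lost in 9 of the 15 fits that left out a library, with 0.21 (0.164) without set1 replicate 2. Against set1, ulp2 slx5 was higher for 8 of the 10 and lower for none, where 53% of all genes were called, 26.6% higher and 26.4% lower, with SSA1 at 2.17 and SSA4 at 1.84. SIS1 (0.09, adjusted p = 0.229) and YDJ1 (−0.10, 0.0961) were not called there.

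The levels of the 10 genes over the 15 libraries were compared with those of 5873 other genes by Pearson correlation of log2(FPKM + 1). These values describe libraries that share strain, mating type and processing. SSA1 was most like YAL004W (r = 0.999), a gene ID with no position in the annotation used here, which averaged 426 FPKM in ulp2 slx5, 219 in ulp2, 336 in slx5, 101 in set1 and 51.1 in WT. The sources used here do not say whether counting used the strand, and whether the libraries' reads were shared between these genes was not tested. Next were DDR2 (0.993), a stress-induced gene, and GND2 (0.993), an isoform of phosphogluconate dehydrogenase. HSP82 was most like the stress-induced Hsp110 gene SSE2 (0.985), the mitochondrial chaperonin gene HSP60 (0.984) and the small heat shock gene HSP26 (0.984). HSP104 was most like ECM29 (0.989), DCS2 (0.989) and GPP2 (0.986), HSP78 most like the citrate synthase gene CIT1 (0.997), and SSA4 most like MCH5 (0.987) and LYS2 (0.985). SIS1 had its closest match in the cohesin gene MCD1 (0.948), HSC82 in CMC1 (0.980), SSE1 in CUZ1 (0.963), SSA2 in IDP3 (0.963) and YDJ1 in BRF1 (0.872). Among the 10 themselves, the highest correlation was 0.964 between SSA1 and HSP82 and the lowest was −0.512 between HSP104 and SIS1.

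The partners of these chaperones did not move as one group. Of 94 other genes in 10 lists of the chaperone network, all passed the filter on low values. The counts below are read beside the shares of all genes called against WT, which were 62.3% in ulp2 slx5, 54.5% in ulp2, 50.7% in slx5 and 37.3% in set1. Scaling to equal totals, which raised the all-gene median in ulp2 slx5, ulp2 and slx5, turned several of the directions.

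Of 10 other Hsp70 genes, 5 were higher and 3 lower in ulp2 slx5 (80% called), 4 and 5 in ulp2 (90%), 3 and 2 in slx5 (50%), and 1 and 0 in set1 (10%). Under equal totals they were 6 and 1 in ulp2 slx5 and 4 and 2 in ulp2, and under equal medians the split was even in ulp2 slx5 and in slx5. The Hsp110 gene SSE2 rose by 1.78 in ulp2 slx5 (limma, adjusted p = 2.67e-09), by 1.68 in slx5 (6.23e-09) and by 0.45 in set1 (0.00155). SSB1, the ribosome-bound Hsp70, fell by 0.78 in ulp2 slx5 (5.02e-07) and by 0.65 in slx5 (3.92e-06). In ulp2 the inducible SSA3 rose by 1.14 (1.03e-06) and the mitochondrial SSC1 fell by 0.51 (0.000130).

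Of 18 other J-protein genes, 3 were higher and 6 lower in ulp2 slx5 (50% called), 3 and 7 in ulp2 (55.6%), 1 and 8 in slx5 (50%), and 1 and 7 in set1 (44.4%). The balance turned under equal totals, with 6 higher and 4 lower in ulp2 slx5 and 3 and 2 in ulp2, and it was even in slx5 (2 and 2). XDJ1, on chromosome XII, rose by 0.43 in ulp2 slx5 (limma, adjusted p = 0.000299) and by 0.78 in ulp2 (2.36e-06). JJJ1, a cofactor of ribosome biogenesis, fell by 0.81 in ulp2 slx5 (0.000361) and by 0.51 in slx5 (0.0114). SEC63, the J-protein of the translocon of the endoplasmic reticulum, fell by 0.40 in ulp2 (6.94e-05). JAC1, which serves iron-sulfur cluster assembly in mitochondria, rose by 0.36 in slx5 (0.00156). In set1 JJJ3, which acts in diphthamide synthesis, rose by 0.56 (0.0143) and HLJ1, of the endoplasmic reticulum membrane, fell by 0.51 (0.000675).

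The list of 4 nucleotide exchange factor genes leaves out the Hsp110 genes SSE1 and SSE2, both called higher in ulp2 slx5 and slx5 as given above. None of the 4 was called higher in any mutant, with 3 lower in ulp2 slx5 (75% called), 4 in ulp2 (100%), 4 in slx5 (100%) and 2 in set1 (50%). Under equal totals 1 was higher and 3 lower in ulp2 slx5, and 2 were lower in each of ulp2, slx5 and set1. FES1, the cytosolic exchange factor, averaged 138 ± 5.59 FPKM in ulp2 slx5, 156 ± 10.8 in slx5, 162 ± 8.93 in set1 and 242 ± 18.5 in WT. That is a fall by 0.80 in ulp2 slx5 (limma, 8.18e-07), by 0.63 in slx5 (1.10e-05) and by 0.57 in set1 (5.61e-05). In ulp2 the mitochondrial exchange factor MGE1 fell most, by 0.69 (9.61e-06).

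Among 12 Hsp90 cochaperone genes, 6 were higher and 4 lower in ulp2 slx5 (83.3% called), 3 and 3 in ulp2 (50%), 5 and 2 in slx5 (58.3%), and 3 and 2 in set1 (41.7%). Under equal medians ulp2 slx5 had 4 higher and 5 lower and ulp2 3 and 4. Under equal totals they had 7 and 0 and 4 and 1, and set1 had 2 and 2. CPR6, a cyclophilin that binds Hsp90 and is encoded on chromosome XII, averaged 383 ± 6.11 FPKM in ulp2 slx5, 336 ± 13.5 in ulp2, 360.1 ± 14.6 in slx5 and 147 ± 18.1 in WT. It rose by 1.39 in ulp2 slx5 (limma, 4.07e-09), 1.2 in ulp2 (2.64e-08) and 1.3 in slx5 (1.05e-08). The largest falls were those of CNS1 in ulp2 slx5 (by 0.48, 0.00938), of the kinase cochaperone CDC37 in ulp2 (by 0.44, 9.91e-05) and of the phosphatase gene PPT1 in slx5 (by 0.21, 0.0237). In set1 SGT1 rose by 0.44 (0.000595) and HCH1 fell by 0.57 (0.000908).

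Of 16 chaperonin and prefoldin genes, 2 were higher and 5 lower in ulp2 slx5 (43.8% called), 5 and 2 in ulp2 (43.8%), 2 and 5 in slx5 (43.8%), and 5 and 1 in set1 (37.5%). Under equal totals 8 of them were higher and 0 lower in ulp2 slx5 and 5 and 1 in slx5, and under quantile normalization set1 had 2 higher and 3 lower, so the direction of most calls turned in all 3. HSP60, the mitochondrial chaperonin, rose by 0.78 in ulp2 slx5 (limma, 1.13e-07) and by 0.85 in slx5 (6.44e-08). The prefoldin gene GIM3 fell by 0.50 in ulp2 slx5 (0.000568), 0.31 in ulp2 (0.0154) and 0.49 in slx5 (0.000860). Another prefoldin gene, YKE2 on chromosome XII, rose by 0.69 in ulp2 (0.000452) and fell by 0.41 in set1 (0.0225), where the cytosolic chaperonin gene CCT8 rose by 0.36 (0.000326).

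Small heat shock and sequestrase genes, 7 in all, were mostly higher, with 6 higher and 1 lower in ulp2 slx5 (100% called), 4 and 0 in ulp2 (57.1%), 6 and 1 in slx5 (100%), and 5 and 1 in set1 (85.7%). Of all genes, 32.9% were called higher in ulp2 slx5, 27.8% in ulp2, 25.6% in slx5 and 22.1% in set1. HSP12, a membrane-associated small heat shock gene, averaged 1124 ± 90.6 FPKM in ulp2 slx5, 371 ± 11.8 in ulp2, 847 ± 46.4 in slx5 and 11.1 ± 2.86 in WT. Its log2 fold change was 6.56 in ulp2 slx5 (limma, 5.46e-13), 4.97 in ulp2 (3.32e-12) and 6.16 in slx5 (3.64e-13). The sequestrase gene CUR1 fell by 0.48 in ulp2 slx5 (7.24e-05) and by 0.25 in slx5 (0.0103), and was not called lower in either under equal totals, which left no lower call there. In set1 HSP30 of the plasma membrane rose by 1.63 (2.92e-06) and the sequestrase gene BTN2 fell by 0.50 (0.000914).

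In the lists sorted by regulator, the 17 genes known to respond to Msn2 and Msn4 were all called higher in ulp2 slx5 and in slx5, with 15 higher and 1 lower in ulp2 (94.1% called) and 16 and 0 in set1 (94.1%). Their median log2 fold change was 2.85 in ulp2 slx5, 1.40 in ulp2, 2.10 in slx5 and 1.42 in set1, and in ulp2 it was 0.92 under quantile normalization. Of all genes, 32.9% were called higher in ulp2 slx5, 27.8% in ulp2, 25.6% in slx5 and 22.1% in set1. The lists were chosen with earlier results of these data known, so such counts describe the listed genes and are no independent test. The lower call in ulp2 was TPS1, the trehalose phosphate synthase (by 0.48, limma adjusted p = 0.00163), and the largest rise in set1 was that of the hexokinase gene HXK1 (2.90, 1.01e-09). Of 11 other genes known to respond to Hsf1, 6 were higher and 4 lower in ulp2 slx5 (90.9% called), 3 and 4 in ulp2 (63.6%), 6 and 3 in slx5 (81.8%), and 2 and 6 in set1 (72.7%), with medians of 0.29, 0.01, 0.59 and −0.24. In ulp2 the direction changed with the scaling, with a median of −0.01 under equal medians and under quantile normalization, and 0.12 with 4 higher and 1 lower under equal totals. HSP42, a small heat shock gene, rose by 1.56 in ulp2 slx5 (5.31e-07) and by 1.16 in set1 (2.66e-05), and the coactivator gene MBF1 fell by 0.50 in ulp2 (0.000136). Some genes stand in more than 1 of these lists, among them HSP12, CPR6 and FES1.

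**Figure D5:**
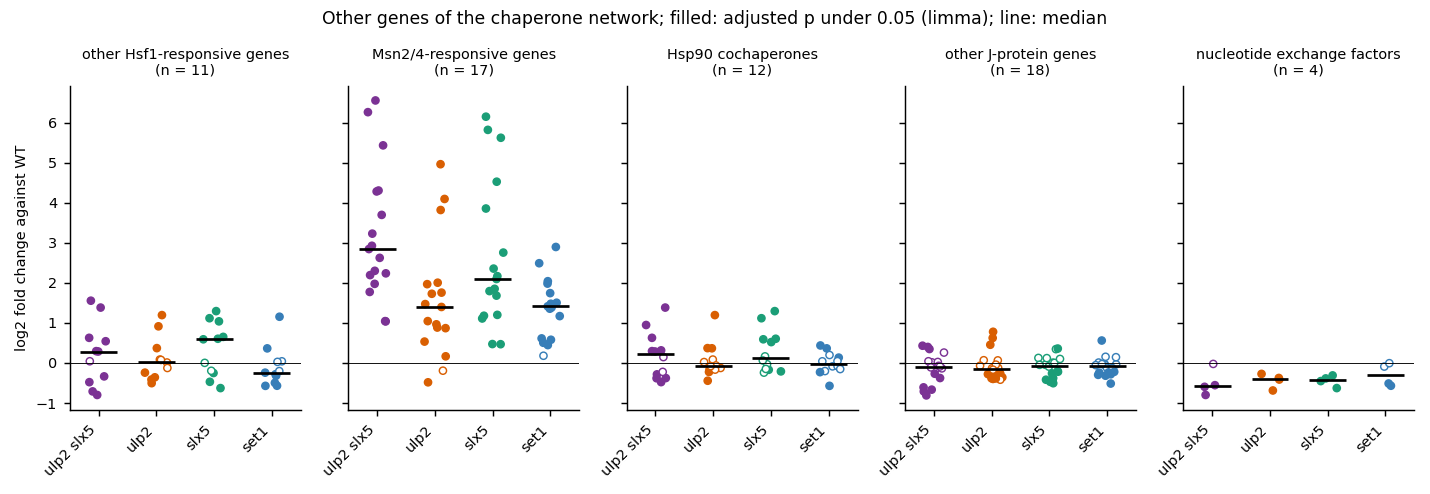
Log2 fold change against WT (vertical axis) of the other genes of 5 lists in ulp2 slx5, ulp2, slx5 and set1; each point is a gene, filled where limma called it, and the line is the median of the list. The medians of the Msn2 and Msn4 list lie above 0, at 2.85, 1.40, 2.10 and 1.42, while TPS1 of that list lies below 0 in ulp2 (−0.48). The other Hsf1 list is spread around 0 with medians of 0.29, 0.01 (−0.01 under equal medians), 0.59 and −0.24. The chaperone genes of the earlier figures are left out of all lists.

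The transcripts of the 6 regulators moved less than those of SSA1 or HSP12. In ulp2 slx5 5 were higher and 0 lower (83.3% called), in ulp2 2 and 1 (50%), in slx5 5 and 0 (83.3%), and in set1 3 and 0 (50%), beside 62.3%, 54.5%, 50.7% and 37.3% of all genes. Under equal totals ulp2 and set1 had 1 higher and 0 lower each. HSF1 averaged 52.4 ± 3.15 FPKM in ulp2 slx5, 38.9 ± 4.57 in ulp2, 48.1 ± 3.85 in slx5, 37.1 ± 3.58 in set1 and 35.0 ± 5.12 in WT. It was higher by 0.58 in ulp2 slx5 (limma, adjusted p = 0.000663) and by 0.45 in slx5 (0.00454), against 0.15 in ulp2 (0.284) and 0.09 in set1 (0.596). MSN4 rose by 1.11 in ulp2 slx5 (7.53e-07), 0.59 in slx5 (0.000273) and 0.42 in set1 (0.00471), against 0.11 in ulp2 (0.380). MSN2 rose by 0.54 in ulp2 slx5 (6.55e-05) and fell by 0.21 in ulp2 (0.0404). The oxidative stress regulator YAP1 rose in all 4 mutants, by 0.92 in ulp2 slx5 (1.99e-08), 0.22 in ulp2 (0.00515), 0.37 in slx5 (0.000116) and 0.18 in set1 (0.0237), and the proteasome gene regulator RPN4 by 0.48 (3.16e-06), 0.49 (3.89e-06), 0.35 (7.70e-05) and 0.36 (0.000143) in the same mutants. GCN4 was called in slx5 (0.19, 0.0114) and in no other mutant. MSN2 and YAP1 lie on chromosome XIII, whose genes had a median log2 fold change of 0.48 in ulp2 slx5. Their values relative to neighbours are not given here.

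Of 10 genes of the unfolded protein response in the endoplasmic reticulum, 5 were higher and 3 lower in ulp2 slx5 (80% called), 2 and 2 in ulp2 (40%), 3 and 1 in slx5 (40%), and 1 and 1 in set1 (20%), beside 62.3%, 54.5%, 50.7% and 37.3% of all genes. Under equal totals the lower calls were gone in ulp2 slx5 (5 and 0), ulp2 (2 and 0) and slx5 (3 and 0), and set1 had 0 higher and 1 lower. ERO1, the oxidase of that compartment, lies on chromosome XIII, whose genes had a median of 0.48 in ulp2 slx5. It rose by 0.96 in ulp2 slx5 (limma, adjusted p = 3.04e-08) and 0.41 in ulp2 (9.79e-05) and fell by 0.28 in set1 (0.00332). PDI1, the disulfide isomerase, rose by 0.51 in slx5 (0.000117) and 0.30 in set1 (0.00864), and its relative EUG1 fell by 0.28 in ulp2 (0.000666). HAC1, the transcription factor of this response, fell by 0.53 in ulp2 slx5 (0.0264) and by 0.49 in slx5 (0.0446).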

How the data were processed

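Polyadenylated RNA of 5 yeast strains, 3 libraries each, is given in FPKM in 1 table that the authors deposited, with 7126 gene IDs. Per the submitters' processing notes, TopHat2 2.0.12, Cuffdiff (version not given in the sources used here) and build R64 were used. The deposited table holds no counts, so the depth is unknown. The smallest value times gene length, over genes longer than 1500 bases, put the relative depth of set1 replicate 0 at 0.521 of that of WT replicate 1, and that of the other 14 libraries at 0.740 to 1.06. Groups follow the labels. The 10 genes, the lists of other genes and the tests were chosen with earlier results of these data known.

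Genes had to reach 1 FPKM in 3 or more libraries, which left 6474. Their log2(FPKM + 1) values entered 1 fit over all 15 libraries (R 4.3.3, limma 3.58.1, trended eBayes, 10 residual degrees of freedom), and intervals are its 95% intervals. Benjamini-Hochberg adjustment covered all tested genes of a comparison, with calls at adjusted p below 0.05. For positions, 6048 of 7126 IDs matched the RefSeq annotation of build R64 and 1078 did not, and 5842 tested genes had a chromosome. The median deviation of the 30 nearest tested genes, without the 10 chaperone genes, was subtracted in each library for values relative to neighbours. Pair sums added FPKM before the log and were adjusted within the fit over all genes. Promoters and coding sequences are RefSeq's. Each list is represented by the called genes that rose and fell most in each mutant, provided that 1 group averaged 10 FPKM or more; the regulators and, for each chaperone gene, the genes of highest correlation are named as well.

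Same-numbered libraries did not deviate together (correlations of −0.13 to 0.14 over 30 pairs), so no block was used. On data simulated for ulp2 against WT with 6474 genes, the procedure recovered 82% of 100 changes of 0.5 and 92% of 100 changes of 1 on the log2 scale, and called 13 unchanged genes. Only those genes were changed in the simulation, whereas 54.5% of all genes were called in ulp2 against WT. The rates may therefore not hold for the measured data. The alternatives were pseudocounts of 0.1 and 5, other filters and scalings, other variance models and samples, a replicate block, local centring and leaving out each library.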

Additional observations from a re-analysis of the deposited data

Results flagged for a closer look

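For 9 of the 10 chaperone genes the change that went with loss of ULP2 differed between the slx5 and the SLX5 background. The test was of the difference itself, the interaction term of limma across all 15 libraries with Benjamini-Hochberg adjustment over 6474 genes. The term is the log2 difference ulp2 slx5 minus slx5, less the difference ulp2 minus WT. It was most negative for SSA1 (−2.03, SE 0.101, adjusted p = 8.80e-09), followed by SSA4 (−1.81, SE 0.111, 6.76e-08) and HSP82 (−1.01, SE 0.103, 6.48e-06). Smaller negative terms were found for SSA2 (−0.83, SE 0.0815, 4.48e-06), HSP104 (−0.70, SE 0.139, 0.00126), HSP78 (−0.49, SE 0.103, 0.00176) and YDJ1 (−0.20, SE 0.0697, 0.0320). It was positive for SIS1 (0.42, SE 0.0858, 0.00151) and HSC82 (0.43, SE 0.155, 0.0419). Of all tested genes 41.8% had such a difference. Relative to neighbours the terms for SSA2 (−0.11, adjusted p = 0.434), HSP104 (0.04, 0.858), HSC82 (0.13, 0.605) and YDJ1 (−0.19, 0.130) were not called. The calls for HSC82 and YDJ1 were also lost in 11 and 10 of the 15 fits that left out a library. Expression of the mating-type genes follows the same contrast, and its part cannot be told apart from that of the deletions. The same limit holds for LYS2 transcripts, near absent in WT and present in ulp2 slx5, ulp2 and slx5. It also holds for MET17 transcripts, near absent only in slx5.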

How the results depend on the processing

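The depth of the libraries is unknown, so no counting error is given, and 3 libraries a group limit the precision to the spread between them; an exact permutation test of 3 against 3 cannot go below p = 0.1. Splits of reads between SSA1 and SSA2 rest on the assignment of reads, and scaling decides the sign of small differences. All values below are log2 differences unless said otherwise, and where a value turned its sign the cause was not tested. The pseudocounts of 0.1 and 5, no filter and the 10 FPKM filter kept the direction and call of all 110 comparisons of single genes and of the pair sums. Replicate numbers did not pair the libraries (correlations of deviations from the group means of −0.13 to 0.14 over 30 same-numbered pairs). With the replicate number as a block, 1 call changed, that of SIS1 in ulp2 slx5 against slx5 (−0.17, limma adjusted p = 0.0513). The number of members called there fell by 1. The other 109 comparisons of single genes kept their calls, as did the pair sums. Centring on the 30 nearest genes turned the sign for HSC82 (−0.33) and YDJ1 (0.20) in ulp2 slx5 against WT and for SSA2 (−0.0077) in ulp2 against WT. The sign also turned for SSA2 (−0.093) in set1 against WT, for SSA2 (0.36) and YDJ1 (0.037) in ulp2 slx5 against ulp2 and for HSC82 (−0.35) and SSE1 (0.068) in ulp2 slx5 against slx5. Signs further turned for HSP104 (0.043) in the interaction, for SSA2 (−0.48) in ulp2 against slx5 and for YDJ1 (0.15) in ulp2 against set1. In addition it turned for HSC82 (−0.077) and YDJ1 (0.18) in ulp2 slx5 against set1. Centring on the 10 nearest genes turned it for HSC82 (−0.57) and YDJ1 (0.27) in ulp2 slx5 against WT and for SSA2 (−0.031) and YDJ1 (−0.0031) in ulp2 against WT. With 10 genes it further turned for HSC82 (−0.13) in slx5 against WT, for SSA2 (−0.061) and YDJ1 (−0.11) in set1 against WT and for SSA2 (0.35) and YDJ1 (0.27) in ulp2 slx5 against ulp2. Another turn was seen for HSP82 (0.054), HSC82 (−0.43) and SSE1 (0.064) in ulp2 slx5 against slx5, for HSP104 (0.043) in the interaction and for SSA2 (−0.49) in ulp2 against slx5. The remaining turns were for SIS1 (0.041) and YDJ1 (0.11) in ulp2 against set1 and for HSC82 (−0.053) and YDJ1 (0.38) in ulp2 slx5 against set1. The members called in ulp2 slx5 against slx5 numbered 0 after centring on 30 genes and 1 on 10 genes, instead of 4, and in the interaction 5 and 4, instead of 9. Relative to neighbours, using the whole chromosome turned the sign for SSA2 in ulp2 against WT (0.010) and YDJ1 in ulp2 slx5 against ulp2 (−0.039). Using 10 neighbours in place of 30 turned it for YDJ1 in ulp2 against WT (−0.0031) and set1 against WT (−0.11), HSC82 in slx5 against WT (−0.13) and HSP82 in ulp2 slx5 against slx5 (0.054), and 1 gene in place of 0 was called in the last comparison. Scaling to equal totals turned the sign for YDJ1 (0.20) in ulp2 slx5 against WT and for SSA2 (−0.037) and YDJ1 (−0.0070) in set1 against WT. Equal totals also turned it for YDJ1 (0.061) in ulp2 slx5 against ulp2, for SSA2 (0.094), HSP82 (0.071), SSE1 (0.11) and HSP78 (0.075) in ulp2 slx5 against slx5 and for HSC82 (0.057), HSP104 (0.065), SIS1 (0.067) and YDJ1 (0.15) in ulp2 against set1. Equal totals did so too for YDJ1 (0.21) in ulp2 slx5 against set1. Quantile normalization turned it for SSA2 (−0.032) in set1 against WT and for SSE1 (0.072) in ulp2 slx5 against slx5. Quantile values also turned it for YDJ1 (0.029) in ulp2 against set1. Equal medians turned it for SSA1 plus SSA2 (−0.044) in ulp2 slx5 against ulp2 and for SSE1 (−0.020) in ulp2 against set1. Of the pair sums, HSP82 plus HSC82 in ulp2 slx5 against slx5 was called under equal totals (0.34), under quantile normalization (0.33) and with only the compared groups in the fit (0.18), and its interaction under equal totals (0.34) and quantile normalization (0.41). SSA1 plus SSA2 was called under quantile normalization in ulp2 slx5 against ulp2 (0.20) and against slx5 (0.19). Over all genes, equal totals gave 1366 calls in place of 2413 in set1 against WT, 1309 (1185 higher) in place of 1988 (1118) in ulp2 slx5 against slx5, and 2078 (1614) in place of 3155 (1474) in ulp2 against set1. The higher share also moved in ulp2 slx5 against ulp2 (1841 of 2657, in place of 1711 of 3406), in slx5 against set1 (1533 of 1988, in place of 1324 of 2794) and in ulp2 slx5 against set1 (2813 of 3193, in place of 1725 of 3434). In ulp2 slx5 against slx5 it moved to 960 of 2257 under equal medians and 1020 of 2286 under quantile normalization. Leaving out 1 library at a time gave these ranges for YDJ1 (−0.0032 to 0.061) in ulp2 against WT and for HSP82 plus HSC82 (0.25 to 0.45) in slx5 against WT. Such ranges were also found for HSC82 (−0.19 to 0.014), HSP82 plus HSC82 (−0.17 to 0.035), SSA1 plus SSA2 (0.078 to 0.16), SSA2 (−0.036 to 0.062), SSA4 (−0.055 to 0.055) and YDJ1 (−0.0042 to 0.085) in set1 against WT, for SSA1 plus SSA2 (−0.013 to 0.032) in ulp2 slx5 against ulp2 and for HSP82 plus HSC82 (0.19 to 0.40) in the interaction. Further ranges were found for HSP104 (−0.20 to 0.026), SSE1 (−0.024 to 0.044) and YDJ1 (−0.058 to 0.031) in ulp2 against set1. Relative to neighbours, leaving out 1 library gave ranges for SSA2 (−0.076 to 0.073) in ulp2 against WT and for HSC82 (−0.13 to 0.15) in slx5 against WT. Ranges there were also found for SSA4 (−0.13 to 0.0068) and YDJ1 (−0.028 to 0.071) in set1 against WT, for YDJ1 (−0.045 to 0.0024) in ulp2 slx5 against slx5 and for HSC82 (−0.014 to 0.26) and HSP104 (−0.045 to 0.14) in the interaction. The members called in ulp2 slx5 against slx5 numbered 1 to 4 in these fits, and 0 to 1 relative to neighbours.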
